A study of Arabidopsis thaliana with 24 samples.

Results

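The genes described here encode proteins of the cytosolic ribosome of Arabidopsis thaliana. A probe set of the ATH1 array was taken as a member where the platform annotation names exactly 1 locus for it and that locus is among 60 listed ribosomal protein loci. The rule found 28 probe sets for 28 of the 60 loci, out of 22746 probe sets on the array. A further 14 loci were covered only by 12 probe sets that the annotation assigns to several loci, and 18 had no listed probe set, so none of these loci has a value of its own here. The 28 genes comprise 7 of the small ribosomal subunit, 20 of the large subunit and 1 of the stalk, and they belong to 23 protein families. Their loci lie on chromosome 1 (12 genes) and chromosome 2 (16 genes). The reference annotation names most of them by locus code only, so the protein family given beside each locus below is background knowledge of these loci.

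The cytosolic ribosome consists of a small subunit, which decodes the mRNA, and a large subunit, which forms the peptide bond and carries the acidic stalk where elongation factors dock. In Arabidopsis nearly every ribosomal protein is encoded by a small family of paralogs, and the transcripts of the whole set are usually abundant where cells grow and divide, as in root tips and young leaves. Their synthesis is coupled to ribosome assembly in the nucleolus and to growth control through the TOR kinase.

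The study asked how engineered oxide nanoparticles act on gene expression in roots and rosette leaves. All plants were wild-type Columbia (Col-0), grown in pots of potting medium and sampled at 29 days of age. They received 500 mg per L of TiO2 particles or the KCl solution without particles, and 500 mg per L of CeO2 particles or water without particles. Each liquid was poured on from above, on 2 occasions in the germination period of days 0 to 4 and once more on day 17. With roots and rosette leaves of each treatment this gives 8 groups of 3 arrays: TiO2 roots, KCl roots, CeO2 roots, water roots, TiO2 leaves, KCl leaves, CeO2 leaves and water leaves. The TiO2 suspension was made in KCl, so TiO2 plants received the salt as well, and KCl plants are their control. The sample labels give the KCl as 0.1 mM and the treatment protocol as 0.1 M, and which is right was not settled. The 3 arrays of a group are labelled as biological replicates, without saying whether plants were pooled, and p-values measure the spread between such samples. The number of arrays limits the precision of every value below.

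All values are log2 signals as the authors deposited them, and all differences are on that scale. The array medians over all probe sets lay between 4.96 and 5.15. Correlations between arrays of a group, over all probe sets, were lowest in CeO2 roots (0.87) and highest in TiO2 leaves (0.99). On 6 of the 24 arrays the signals were compressed, with a lower quartile above 3.7: TiO2 roots 2, KCl roots 1 and 3, water roots 1, KCl leaves 2 and CeO2 leaves 2. These are called the narrow arrays below. The tissue labels were checked with 5 leaf markers, among them RCA, the Rubisco activase, and PRK, the phosphoribulokinase. The median of the leaf markers lay between 4.08 and 7.16 on root arrays and between 9.15 and 12.02 on leaf arrays. Of 4 root markers, the β-glucosidase PYK10 and the lectin JAL33 were 6.89 and 6.65 higher in control roots than in control leaves, while the root hair expansins EXPA7 and EXPA18 differed by -0.05 and 0.13. No array stood in the wrong tissue by the medians of either list.

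The signals of the 28 ribosomal protein genes ranged from 3.34 to 13.31 across arrays. The brightest probe sets in roots were those of AT1G52300 (RPL37), AT1G15930 (RPS12) and AT2G19730 (RPL28), with means over 12 arrays of 12.55, 12.46 and 12.19. The dimmest were those of AT1G23410 (the ubiquitin-RPS27a fusion), AT2G40010 (the stalk protein P0) and AT1G15250 (RPL37), with means of 4.93, 6.37 and 7.38. In leaves the same dimmest genes averaged 3.92, 4.99 and 7.73, and the brightest were AT1G52300 (11.98), AT2G19730 (11.75) and AT2G36160 (RPS14, 11.44). Brightness depends on each probe set's own probes, so these values give no order of mRNA levels. AT1G23410 lay below its array's median on 21 of 24 arrays and above it on the 3 KCl root arrays.

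**Figure D1:**
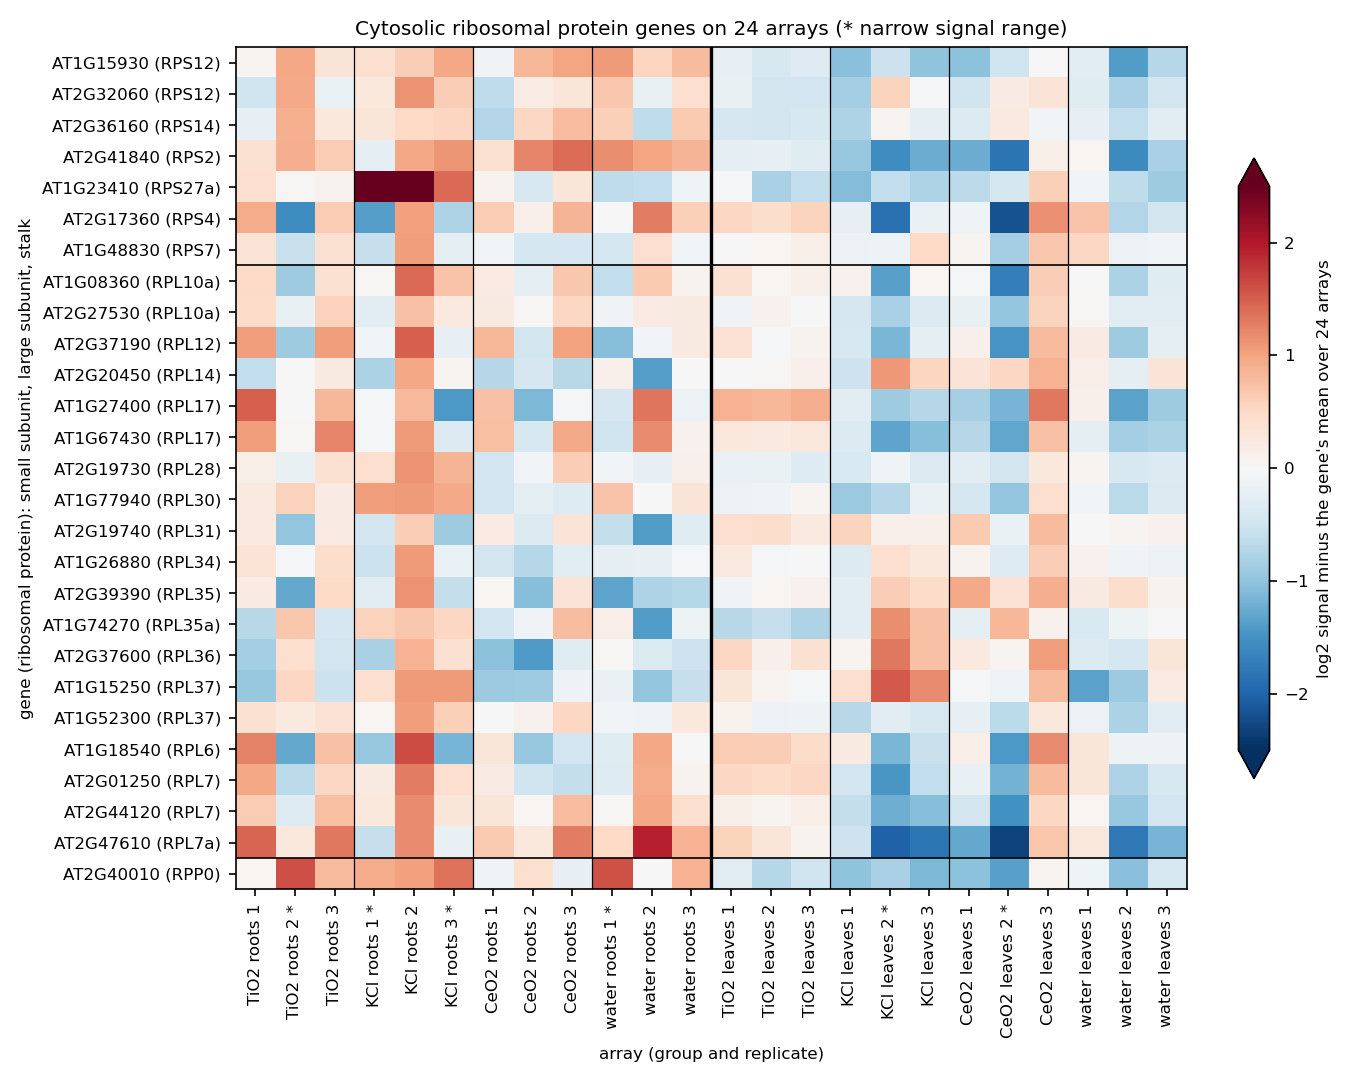
Log2 signal of 27 of the ribosomal protein genes minus each gene's mean over 24 arrays (colour), by gene (rows, small subunit above, then large subunit, then stalk) and by array (columns, an asterisk marks narrow arrays). Root arrays stand left of the thick line and leaf arrays right of it; AT1G23410 is highest on the 3 KCl root arrays, and several large subunit rows are darker blue on narrow arrays.

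Many of these genes had a higher signal in control roots than in control leaves. In control plants (KCl and water), 13 of the 28 genes were higher in roots than in leaves and 0 were lower, against 19.2% and 15.4% of all probe sets that limma called higher and lower at an adjusted p below 0.05. At an unadjusted p below 0.05, 15 of the 28 were higher and 2 lower, against 24.8% and 18.3% of all probe sets. The median difference, roots minus leaves, was 0.67 over the 28 genes and 0.10 over all probe sets, and 20 of the 28 differences were above 0, against 60.1% of all probe sets. The genes that passed included RPS2, both RPS12 genes and the RPS27a fusion of the small subunit, RPL7a, both RPL7 genes, RPL17, RPL28, RPL30 and RPL37 of the large subunit, and P0 of the stalk. In whole organs, a different share of ribosome-rich cells and a different amount of mRNA per cell cannot be told apart.

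By subunit, 4 of the 7 small subunit genes and 9 of the 21 large subunit and stalk genes passed, with median differences of 0.80 and 0.63. AT2G41840 (RPS2), whose protein lines the mRNA entry channel of the small subunit, had signals of 11.13 to 12.53 in the 6 control root arrays (median 12.34), against 9.77 to 11.41 in the 6 control leaf arrays (median 10.27). The tissues overlapped only through KCl roots 1, which lay below water leaves 1. The difference was 1.82 ± 0.32 (SE; limma adjusted p = 0.000205). AT1G15930 (RPS12) had 12.23 to 12.90 in control roots (median 12.54), against 10.44 to 11.56 in control leaves (median 10.98). The tissues did not overlap, and the difference was 1.56 ± 0.23 (adjusted p = 3.42e-05). Its paralog AT2G32060 was 0.80 ± 0.28 higher in roots (adjusted p = 0.033), with overlapping arrays.

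AT2G40010, a gene for P0, the scaffold of the stalk, had 5.69 to 7.28 in control roots (median 6.65), against 4.55 to 5.57 in control leaves (median 4.77). Every control root array lay above every control leaf array, and the difference was 1.72 ± 0.30 (adjusted p = 0.000155). The control leaf median of this gene lay below all array medians (4.96 to 5.15), a low signal that limits the value. AT2G47610 (RPL7a) had 9.03 to 11.54 in control roots (median 10.29), against 7.58 to 9.88 in control leaves (median 8.13). Its arrays overlapped, and the difference was 1.79 ± 0.48 (adjusted p = 0.00697). AT1G77940 (RPL30) had 11.04 to 12.10 in control roots (median 11.86), against 10.09 to 10.96 in control leaves (median 10.50), a difference of 1.17 ± 0.20 (adjusted p = 0.000135) without overlap. AT1G52300 (RPL37) did not overlap either and was 0.74 ± 0.18 higher in roots (adjusted p = 0.00344). These 4 genes, AT1G15930, AT2G40010, AT1G77940 and AT1G52300, were the ones whose control root arrays all lay above the control leaf arrays, while 7.68% of all probe sets did so.

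The other genes that rose in control roots included the 2 RPL7 genes, AT2G44120 (1.24 ± 0.30) and AT2G01250 (1.0 ± 0.35), AT1G67430 (RPL17, 1.01 ± 0.37) and AT2G19730 (RPL28, 0.63 ± 0.18). Their adjusted p ranged from 0.00336 for AT2G44120 to 0.042 for AT1G67430. AT1G23410 passed as well, at 1.61 ± 0.26 (adjusted p = 7.13e-05), but its root excess lay in the KCl plants. Roots minus leaves was 3.13 for it in KCl plants and 0.09 in water plants. It was 0.67 in TiO2 plants, which received the salt too, and 0.16 in CeO2 plants.

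The lowest differences were those of AT2G39390 (RPL35, -0.69 ± 0.32, adjusted p = 0.109), AT2G19740 (RPL31, -0.67 ± 0.27, 0.0651), AT2G20450 (RPL14, -0.40 ± 0.31, 0.351), AT2G37600 (RPL36, -0.34 ± 0.30, 0.419) and AT1G74270 (RPL35a, -0.12 ± 0.31, 0.80). None of these passed. AT2G19740 and AT2G19730 are neighbours on chromosome 2, and only the RPL28 gene passed. Of the 13 genes that passed, 9 did so whichever of the 12 control arrays was left out. The other 4, among them AT1G67430, AT2G01250 and AT2G32060, each lost the call in 4 to 7 of the 12 fits that left out 1 array, with adjusted p of up to 0.117.

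Paralogs did not all pass together between control roots and control leaves. Both RPS12 genes and both RPL7 genes passed in control plants. Of the RPL17 pair, AT1G67430 passed and AT1G27400 had 0.68 ± 0.48 (adjusted p = 0.296). Of the RPL37 pair, AT1G52300 passed and AT1G15250 had -0.05 ± 0.30 (adjusted p = 0.923). Neither RPL10a gene passed, with 0.77 ± 0.39 for AT1G08360 and 0.53 ± 0.22 for AT2G27530, which is PGY1, a gene known for its part in leaf polarity. Differences between paralogs were not tested.

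In particle-treated plants (TiO2 and CeO2), 3 of the 28 genes were higher in roots and 1 was lower, against 15.5% and 13.6% of all probe sets. The median difference was 0.21, against 0.07 over all probe sets. AT2G41840 (RPS2) had 11.73 to 12.76 in particle-treated roots (median 12.13), against 9.53 to 11.50 in particle-treated leaves (median 11.10). Its arrays did not overlap, and the difference was 1.43 ± 0.32 (adjusted p = 0.00211), while 6.66% of all probe sets were separated in this direction. AT2G40010 (P0) was 1.06 ± 0.30 higher in roots (adjusted p = 0.0106; 0.71 and adjusted p = 0.0781, no longer passing, without the narrow arrays) and AT1G15930 (RPS12) 0.91 ± 0.23 higher (adjusted p = 0.00551). AT2G37600 (RPL36) had 6.58 to 8.42 in particle-treated roots (median 7.35), against 8.07 to 9.05 in particle-treated leaves (median 8.32), a difference of -1.0 ± 0.30 (adjusted p = 0.0173). It overlapped through TiO2 roots 2, a narrow array.

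Among genes that did not pass in particle-treated plants, AT2G47610 (RPL7a) had 1.20 ± 0.48 (adjusted p = 0.0721) and AT1G52300 (RPL37) 0.40 ± 0.18 (0.11). On the low side, AT2G20450 (RPL14) had -0.68 ± 0.31 (0.116), AT1G15250 (RPL37) -0.65 ± 0.30 (0.118), AT2G39390 (RPL35) -0.59 ± 0.32 (0.198) and AT2G19740 (RPL31) -0.46 ± 0.27 (0.24). Among leaf arrays, CeO2 leaves 3 had the highest median signal of the 28 genes (11.01), and without that array 8 genes were higher in roots and 0 lower. The share of all probe sets called without that array is not given here. The call of AT2G37600 was also lost without TiO2 roots 1 or CeO2 roots 2.

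**Figure D2:**
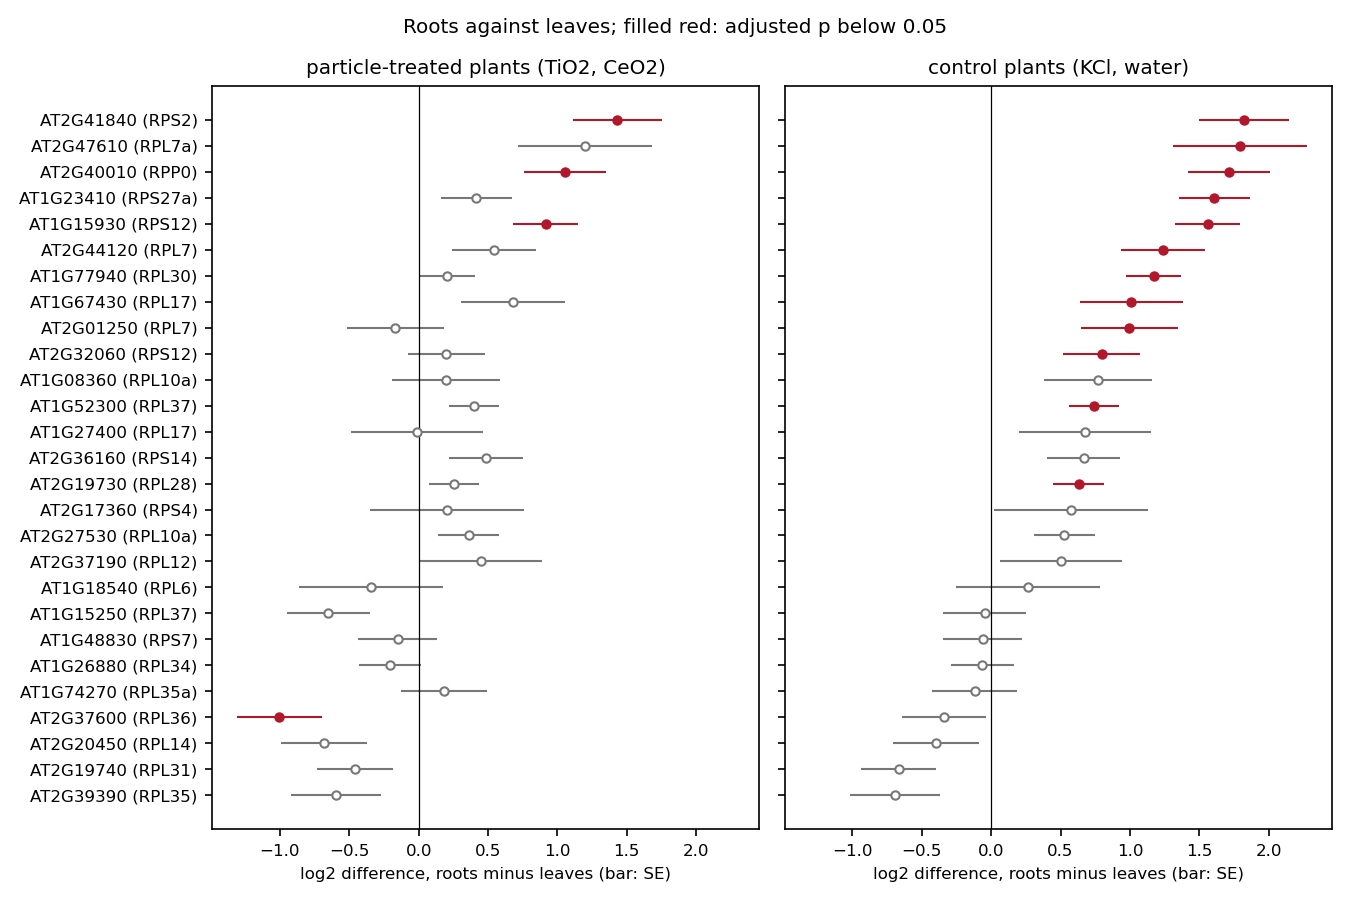
Difference of log2 signal, roots minus leaves, with its SE, for 27 of the ribosomal protein genes in particle-treated plants (left) and control plants (right). Filled red points passed at an adjusted p below 0.05: 4 on the left, of which AT2G37600 lies below 0, and 12 on the right.

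Treatment by treatment, roots lay above leaves for 17 of the 28 genes in TiO2 plants, 22 in KCl plants, 16 in CeO2 plants and 21 in water plants. Over all probe sets the shares above 0 were 61.5%, 56.8%, 50.6% and 60.2% in the same order, so that the count in TiO2 plants stood near that of the whole array. The median differences of the 28 genes were 0.26, 0.77, 0.17 and 0.43, and those of all probe sets 0.12, 0.08, 0.0063 and 0.11. In all 4 treatments 13 genes were higher in roots, against 30.6% of all probe sets, and 4 genes were higher in none: AT2G19740 (RPL31), AT2G20450 (RPL14), AT2G37600 (RPL36) and AT2G39390 (RPL35). These are counts of signs and carry no test.

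Ribosomal protein loci outside the list of 60 gave similar counts. Of 164 such loci, 105 had a probe set of their own. In control plants 43 of these were higher in roots and 2 lower, against 19.2% and 15.4% of all probe sets, with a median of 0.53. In particle-treated plants 13 were higher and 4 lower, against 15.5% and 13.6% of all probe sets, with a median of 0.14. AT5G61170 (RPS19) was highest in control plants, at 2.13 ± 0.39 (adjusted p = 0.000305). AT3G09200 and AT3G11250, the other P0 genes, were 1.91 and 1.53 higher in control roots, and both passed (adjusted p = 0.000232 and 0.00019). AT3G28500, a gene for the stalk protein P2, was lower in roots in control plants (-1.89 ± 0.63, adjusted p = 0.0259) and in particle-treated plants (-2.06 ± 0.63, adjusted p = 0.0187).

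Between TiO2 and KCl roots, 1 of the 28 genes passed. AT1G23410, which encodes ubiquitin joined to the small subunit protein RPS27a, was lower in TiO2 roots, against 0.145% of all probe sets called lower. No gene was higher, against 0.202% of all probe sets, and at an unadjusted p below 0.05 there were 0 higher and 4 lower, against 5.69% and 6.79% of all probe sets. The median difference was -0.22, against -0.06 over all probe sets, and 10 of the 28 lay above 0, against 43.4%. That median rested on single arrays: it was 0.14 without KCl roots 2, -0.38 without KCl roots 1 and -0.0022 without TiO2 roots 2. KCl and TiO2 plants both received the salt, and the same KCl arrays serve as reference here and are compared with water below.

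AT1G23410 had 4.85, 4.45 and 4.51 in TiO2 roots, against 7.04, 7.28 and 5.85 in KCl roots. The KCl root arrays lay above all other arrays of the series, and the TiO2 root arrays lay below the highest CeO2 leaf array. CeO2 roots had 4.51, 4.02 and 4.72, against 3.80, 3.82 and 4.32 in water roots. The difference between TiO2 and KCl roots was -2.12 ± 0.36 (adjusted p = 0.0433). In leaves the gene had 4.37, 3.61 and 3.81 with TiO2, against 3.34, 3.81 and 3.64 with KCl, and 3.77, 3.99 and 5.02 with CeO2, against 4.35, 3.79 and 3.53 with water. The leaf groups all overlapped.

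The call on AT1G23410 stood close to the threshold. It was lost without KCl roots 1, KCl roots 2, TiO2 roots 1 or TiO2 roots 3, with adjusted p from 0.0279 to 0.185 over the 6 arrays left out in turn, and without the narrow arrays (-2.61, adjusted p = 0.164), which leaves 1 KCl root array. It was also lost with the replicate number as a block (adjusted p = 0.0798) and in a fit to TiO2 and KCl roots alone (adjusted p = 0.147).

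Against water, the KCl roots were higher in AT1G23410 by 2.74 ± 0.36 (adjusted p = 0.0367), the 1 gene of the 28 that passed, against 0.0484% of all probe sets called higher. Same-numbered KCl and water root arrays deviated together, and with the replicate number as a block the gene no longer passed (adjusted p = 0.0844). It also lost the call without KCl roots 1, KCl roots 2 or any 1 of the water root arrays, with adjusted p from 0.0195 to 0.179, without the narrow arrays (3.21, adjusted p = 0.283) and in a fit to KCl and water roots alone (adjusted p = 0.114). The comparison shares its KCl arrays with the one above, so these 2 results are not independent of each other.

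**Figure D3:**
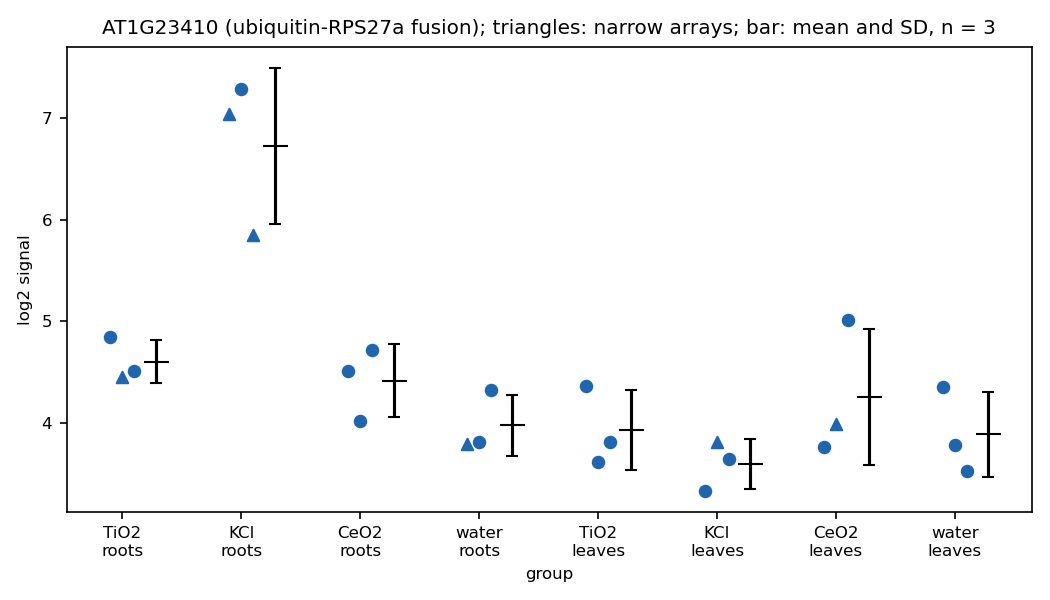
Log2 signal of AT1G23410 on each array, by group, with mean and SD of 3 arrays (bars); triangles are narrow arrays. KCl roots lie between 5.85 and 7.28, and every other array lies at or below 5.02.

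Other genes in TiO2 roots did not pass. AT1G77940 (RPL30) had 11.28, 11.60 and 11.24 in TiO2 roots, against 12.06, 12.10 and 11.97 in KCl roots. The groups did not overlap, and the difference was -0.67 ± 0.21 (adjusted p = 0.189). AT2G19730 (RPL28) had 12.11, 11.78 and 12.35 in TiO2 roots, against 12.40, 13.09 and 12.83 in KCl roots. It was separated too, with a difference of -0.69 ± 0.30 (adjusted p = 0.374). With AT1G23410 these made 3 genes whose TiO2 root arrays all lay below the KCl root arrays, against 8.53% of all probe sets, and 0 lay above, against 6.73%.

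AT1G15250 (RPL37) had -1.17 ± 0.40 (adjusted p = 0.236) and AT1G74270 (RPL35a) -0.73 ± 0.48 (0.608). On the high side were AT1G27400 and AT1G67430, the RPL17 pair (0.99 ± 0.70 and 0.54 ± 0.55), AT2G47610 (RPL7a, 0.86 ± 0.54) and AT2G17360 (RPS4, 0.37 ± 0.73). The adjusted p of these 4 was 0.586 or higher. Of the 105 other ribosomal protein probe sets, 0 passed in this comparison, with a lowest adjusted p of 0.233 and a median of -0.13. At an unadjusted p below 0.05, 4 of the 105 were lower, against 6.79% of all probe sets. The leaf markers moved within the root samples: their array medians were 4.74 to 6.96 in TiO2 roots, against 4.08 to 5.71 in KCl roots, and all 5 markers had differences above 0, none of which passed. Their part in the results was not tested.

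The other genes did not pass between KCl and water roots, where 4 of the 28 were higher, against 6.18% of all probe sets, and 0 lower at an unadjusted p below 0.05. The median difference over the 28 genes was 0.32, against 0.03 over all probe sets, and 20 lay above 0, against 53.5%. The median was 0.08 without KCl roots 2 and 0.59 without KCl roots 1. KCl root arrays all lay above water root arrays for 6 genes, against 8.21% of all probe sets: AT1G23410, AT1G15250 (RPL37), AT1G74270 (RPL35a), AT1G77940 (RPL30), AT2G19730 (RPL28) and AT2G39390 (RPL35). AT1G15250 had 7.97, 8.61 and 8.61 in KCl roots, against 7.39, 6.56 and 6.97 in water roots, a difference of 1.42 ± 0.40 (adjusted p = 0.17). On the low side AT2G47610 (RPL7a) had -0.96 ± 0.54 (adjusted p = 0.564).

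In leaves, 15 of the 28 genes had all 3 TiO2 arrays above all 3 KCl arrays, against 11.1% of all probe sets, but none passed the test, which called 0.0132% of all probe sets higher and 0.00879% lower. All 3 TiO2 arrays lay below KCl for 2 genes, against 14% of all probe sets. The median difference was 0.51, against -0.07 over all probe sets, and 19 lay above 0, against 42.3%. The median stayed between 0.42 and 0.53 whichever TiO2 or KCl leaf array was left out. The lowest adjusted p among the 28 was 0.189; at an unadjusted p below 0.05, 5 genes were higher and 2 lower, against 8.44% and 7.05% of all probe sets.

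The TiO2 leaf arrays were more alike than those of any other group. The SD over 3 arrays had a median of 0.10 over the 28 genes in TiO2 leaves, against 0.415 in KCl leaves, and lay between 0.376 and 0.732 in the other 6 groups. AT2G47610 (RPL7a) had 10.16, 9.90 and 9.69 in TiO2 leaves, against 9.09, 7.58 and 7.79 in KCl leaves. The groups were separated, with a difference of 1.76 ± 0.75 (adjusted p = 0.305). AT1G27400 (RPL17) had 9.68, 9.64 and 9.72 in TiO2 leaves, against 8.54, 7.92 and 8.10 in KCl leaves, a difference of 1.49 ± 0.58 (adjusted p = 0.274). Its paralog AT1G67430 had 11.24, 11.22 and 11.25, against 10.64, 9.66 and 9.90 (1.17 ± 0.45, adjusted p = 0.271). Both RPL17 genes were thus separated between the groups.

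The RPL7 pair showed the same order of groups. AT2G01250 had 11.16, 11.09 and 11.16 in TiO2 leaves, against 10.15, 9.19 and 10.03 in KCl leaves (1.35 ± 0.47, adjusted p = 0.241). AT2G44120 had 10.55, 10.47 and 10.57 in TiO2 leaves, against 9.80, 9.19 and 9.34 in KCl leaves (1.09 ± 0.44, adjusted p = 0.289). In the opposite direction, AT1G74270 (RPL35a) had 9.20, 9.33 and 9.13 in TiO2 leaves, against 9.63, 11.06 and 10.62 in KCl leaves (-1.22 ± 0.36, adjusted p = 0.189). AT1G15250 (RPL37) had 7.85, 7.62 and 7.51 in TiO2 leaves, against 7.98, 9.09 and 8.73 in KCl leaves (-0.94 ± 0.42, adjusted p = 0.318). These 2 genes were the ones with all TiO2 leaf arrays below KCl. AT2G37600 (RPL36), AT2G20450 (RPL14) and AT2G39390 (RPL35) had -0.37 ± 0.35, -0.32 ± 0.35 and -0.26 ± 0.24, with adjusted p of 0.615 or higher.

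The leaf markers lay higher in the same arrays: all 5 had differences above 0, with a median of 1.14, and none passed. At an unadjusted p below 0.05, 4 of the 5 were higher, against 8.44% of all probe sets. Separated upward were 2, against 11.1%. The markers had array medians of 10.85 to 12.02 in TiO2 leaves, against 9.58 to 11.19 in KCl leaves. Both Aurora kinase genes of the cell division list were above 0 too, with a median of 0.73. Their part in the result was not tested. KCl leaves 2 is a narrow array. Without the narrow arrays the median difference was 0.45, with 23 of 28 above 0, and again no gene passed. The share of all probe sets above 0 was not counted in that fit. Of the 105 other ribosomal protein probe sets, 30 had TiO2 leaf arrays all above KCl and 3 all below, against 11.1% and 14% of all probe sets. Their median was 0.11. KCl leaves against water leaves, which uses the same KCl arrays, gave a median of -0.05 over the 28 genes (0.09 without water leaves 1 and -0.25 without water leaves 2), against 0.04 over all probe sets, and 0 genes passed, against 0.189% of all probe sets in either direction (lowest adjusted p = 0.128; at an unadjusted p below 0.05, 2 higher, against 6.12% of all probe sets, and 0 lower). The lowest p was that of AT1G15250 (RPL37), with 7.98, 9.09 and 8.73 in KCl leaves, against 6.20, 6.64 and 7.75 in water leaves (1.74 ± 0.42). AT2G37600 (RPL36) had 0.86 ± 0.35 (adjusted p = 0.356), AT2G40010 (P0) -0.46 ± 0.36 (0.676) and AT2G01250 (RPL7) -0.56 ± 0.47 (0.705).

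CeO2 gave no call in either tissue. In roots 0 of the 28 genes passed relative to water, against 0.0176% of all probe sets in either direction, with a lowest adjusted p of 0.448 and 1 gene lower at an unadjusted p below 0.05, against 2.87% of all probe sets. The median difference was -0.09, against -0.04 over all probe sets, and between -0.27 and -0.0050 with 1 root array left out. That gene was AT1G77940 (RPL30), with 10.55, 10.81 and 10.69 in CeO2 roots, against 11.74, 11.04 and 11.34 in water roots. The groups did not overlap, and the difference was -0.69 ± 0.21. AT1G26880 (RPL34) was the other gene with CeO2 root arrays all below water, at -0.32 ± 0.35, so that 2 genes were separated downward, against 7.29% of all probe sets.

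Other low values in CeO2 roots included those of AT2G40010 (P0, -0.80 ± 0.45), AT2G37600 (RPL36, -0.64 ± 0.47) and AT2G01250 (RPL7, -0.52 ± 0.48). The high ones were AT2G19740 (RPL31, 0.83 ± 0.47), AT2G37190 (RPL12, a stalk base protein, 0.75 ± 0.66), AT2G39390 (RPL35, 0.71 ± 0.57), AT1G74270 (RPL35a, 0.52 ± 0.48) and AT1G23410 (0.44 ± 0.36). All had adjusted p of 0.867 or higher. The leaf marker medians were 4.54 to 7.16 in CeO2 roots, against 4.38 to 6.89 in water roots, and their part in these values was not tested.

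In leaves 0 of the 28 genes passed for CeO2, and limma called 0% of all probe sets (lowest adjusted p of the 28 genes 1.0; 0 genes at an unadjusted p below 0.05, against 2.21% of all probe sets). The median difference was 0.18, against 0.02 over all probe sets, and 19 lay above 0, against 53.7%. The median turned to -0.22 without CeO2 leaves 3 and was 0.50 without CeO2 leaves 2. All 5 leaf markers lay below 0, with a median of -0.55, and none passed. Separated downward were 2 of the 5, against 531 of 22746 probe sets. The leaf markers had array medians of 9.15 to 10.53 in CeO2 leaves, against 10.33 to 11.27 in water leaves. Their part was not tested. Above 0, the genes with the smallest p were AT1G15250 (RPL37, 0.91 ± 0.42), AT2G37600 (RPL36, 0.61 ± 0.35), AT2G32060 (RPS12, 0.53 ± 0.34), AT2G39390 (RPL35, 0.49 ± 0.24) and AT2G19740 (RPL31, 0.37 ± 0.24). The lowest values were those of AT2G40010 (P0, -0.25 ± 0.36), AT2G17360 (RPS4, -0.22 ± 0.77), AT2G41840 (RPS2, -0.20 ± 0.50), AT1G48830 (RPS7, -0.14 ± 0.35) and AT2G47610 (RPL7a, -0.08 ± 0.75). AT2G20450 (RPL14) was the 1 gene with CeO2 leaf arrays all above water, 8.99, 9.16 and 9.52 against 8.83, 8.44 and 8.97, while 2.89% of all probe sets were separated upward.

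By the SD of a gene's 3 arrays, the CeO2 leaf arrays disagreed more than those of the other leaf groups. It had a median of 0.732 over the 28 genes in CeO2 leaves, against 0.376 in water leaves. AT2G17360 (RPS4) had 8.87, 6.80 and 10.13 in CeO2 leaves, against 9.69, 8.25 and 8.52 in water leaves. CeO2 leaves 2, a narrow array, was the lowest and CeO2 leaves 3 the highest. Without the narrow arrays all 28 differences in leaves were above 0 and the median was 0.50, and still no gene passed. The share of all probe sets above 0 was not counted in that fit. Of the 105 other ribosomal protein probe sets, 90 lay above 0 with all arrays, with a median of 0.24.

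**Figure D4:**
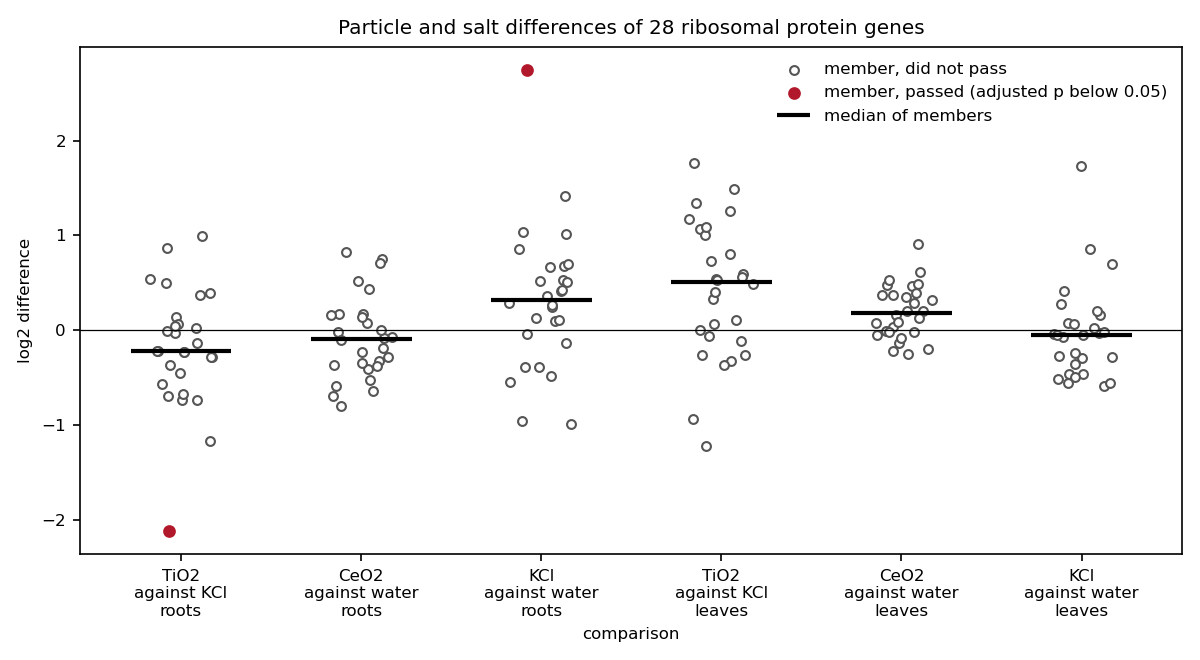
Log2 difference of each of the 28 ribosomal protein genes in 6 comparisons (points) with the median (bar); filled red points passed at an adjusted p below 0.05. AT1G23410 passed in TiO2 against KCl roots (-2.12) and in KCl against water roots (2.74).

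Whether the particles' effects differed was tested as a difference of differences. The TiO2 effect and the CeO2 effect differed for 0 of the 28 genes in roots, against 0.572% of all probe sets in either direction (lowest adjusted p = 0.0621), and for 0 in leaves, against 0.0176% (lowest adjusted p = 0.341). At an unadjusted p below 0.05 there was 1 gene in roots and 2 in leaves, all with the lower TiO2 effect, against 6.73% and 5.55% of all probe sets. In roots, values by p included AT1G23410 (-2.56 ± 0.51) and AT1G15250 (RPL37, -1.10 ± 0.56) below 0, and AT2G47610 (RPL7a, 1.23 ± 0.76) above 0. In leaves the extremes by p were AT1G15250 (-1.85 ± 0.59) and AT1G74270 (RPL35a, -1.61 ± 0.50) below 0, and AT2G01250 and AT2G44120, the RPL7 pair (1.25 ± 0.66 and 1.11 ± 0.62), above 0.

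The TiO2 effect in roots minus that in leaves lay below 0 for 25 of the 28 genes and above 0 for 3, against 49.7% of all probe sets above 0. Its median was -0.63 over the 28 genes and -0.0044 over all probe sets. None passed, against 0.207% of all probe sets in either direction, and 4 were lower at an unadjusted p below 0.05, against 6.57% of all probe sets. AT1G23410 had -2.45 ± 0.51 (adjusted p = 0.055) and AT1G77940 (RPL30) -1.21 ± 0.40 (adjusted p = 0.225). AT1G74270 (RPL35a, 0.48 ± 0.62) and AT1G26880 (RPL34, 0.20 ± 0.45) lay above 0. The median was -0.19 without KCl roots 2 and -0.37 without TiO2 roots 2. With arrays centred on their medians the count below 0 was 20 of 28, while the median over all probe sets was 0.18. Without the narrow arrays the count below 0 was 28 of 28, with a median of -1.13. The share of all probe sets below 0 was not counted in these fits.

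For CeO2 the same difference lay below 0 for 18 of the 28 genes, while 44% of all probe sets lay above 0, with a median of -0.22, and none passed, against 0.0044% of all probe sets (lowest adjusted p = 0.967; 0 at an unadjusted p below 0.05, against 4.91%). AT2G37600 (RPL36, -1.25 ± 0.61) and AT1G77940 (RPL30, -0.72 ± 0.40) were lowest by p, and AT2G19740 (RPL31, 0.45 ± 0.54) and AT2G37190 (RPL12, 0.63 ± 0.88) stood on the high side. The median was 0.12 without CeO2 leaves 3 and -0.57 without CeO2 leaves 2. Without the narrow arrays it was -0.68, with 25 of 28 genes below 0, and the share of all probe sets was not counted in that fit. With all arrays, 87 of the 105 other ribosomal protein probe sets lay below 0 for CeO2 and 79 for TiO2.

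Many of these genes read lower on the narrow arrays. The upper quartile was lower there too, 6.82 to 7.06, against 7.13 to 7.29 on the other arrays. Bright probe sets thus tend to read lower on narrow arrays, and the median of the 28 genes lay above the upper quartile on every array. The 28 genes were not compared with probe sets of like brightness. In the 5 groups that hold narrow and other arrays, 11 of the 28 genes were lower on the narrow arrays in every group and 1, AT1G15930 (RPS12), was higher in every group. The shares of all probe sets that did so were not counted. Averaged over the groups, the difference, narrow minus other arrays, had a median of -0.41 over the 28 genes, against 0.08 over all probe sets and -0.09 over the other ribosomal protein genes. This averaged difference lay below 0 for 20 of the 28 genes, against 43.4% of all probe sets. AT2G17360 (RPS4) was lowest, at -1.96: TiO2 roots 2 had 7.42, against 9.92 and 9.61 on the other TiO2 root arrays. KCl roots 1 and 3 had 7.60 and 8.21 for this gene, against 10.01 on KCl roots 2. AT1G18540 (RPL6) and AT2G37190 (RPL12) followed at -1.76 and -1.49. AT1G74270 (RPL35a) was highest, at 0.77.

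Leaving out the 6 narrow arrays moved the medians between treatments in roots to -0.62 for TiO2 against KCl, to 0.93 for KCl against water and to -0.16 for CeO2 against water. Between roots and leaves of control plants the median moved to 1.09, with 26 of the 28 genes above 0. The share of all probe sets above 0 was not counted in that fit. In particle-treated plants 2 genes were then higher in roots and 2 lower, rather than 3 and 1: AT2G40010 (P0) lost its call and AT1G15250 (RPL37) passed as lower (-0.94, adjusted p = 0.0375). The share of all probe sets called between particle-treated roots and leaves in that fit is not given here. In every comparison that uses KCl roots, that group then rests on KCl roots 2 alone, whose spread is assumed to equal that of the other groups. Across the 28 genes, the averaged narrow minus other difference had a Pearson correlation with the TiO2 against KCl difference of -0.72 in leaves and -0.49 in roots. For KCl against water in roots it was 0.40, and for CeO2 against water -0.10 in roots and 0.49 in leaves. The same arrays enter both sides of these correlations. The part of the compressed signal in the treatment differences was not tested.

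**Figure D5:**
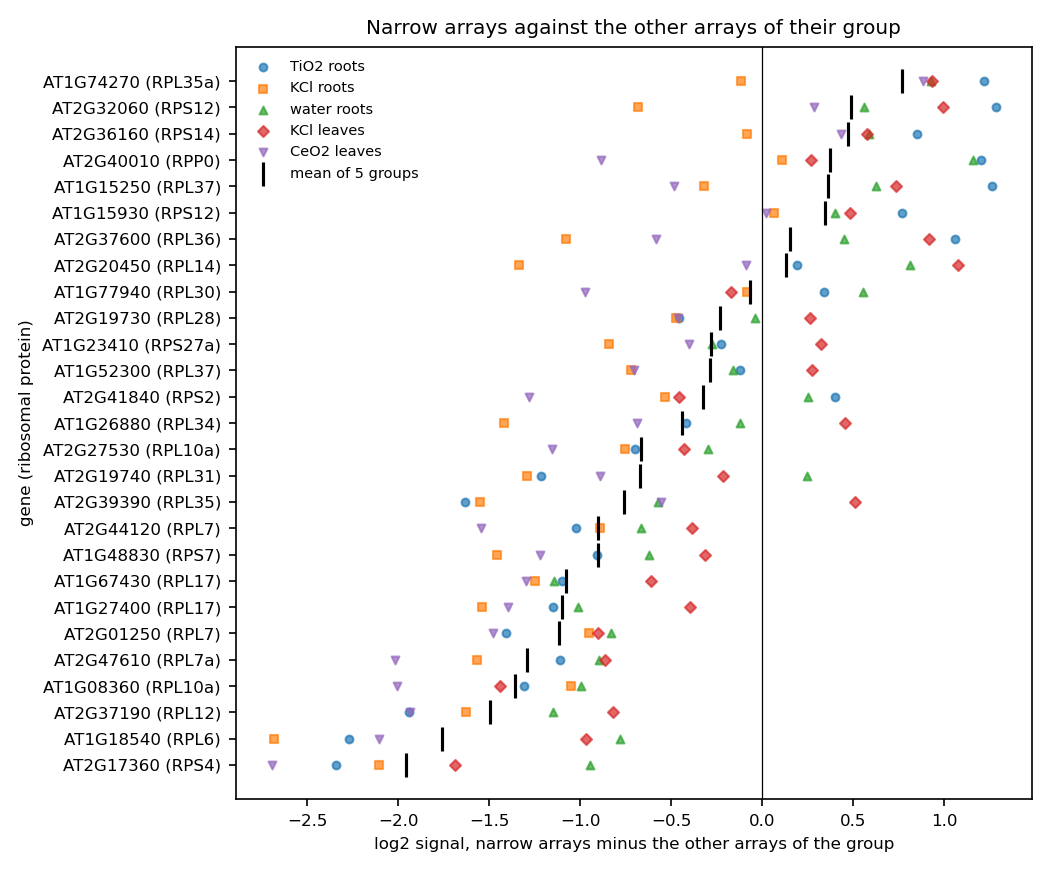
Log2 signal of narrow arrays minus the other arrays of their group, for 27 of the ribosomal protein genes (rows) in the 5 groups that hold both kinds (symbols), with the mean over the 5 groups (black bar). Means run from -1.96 for AT2G17360 to 0.77 for AT1G74270.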

How the data were processed

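Log2 expression values of 22746 probe sets on 24 Affymetrix ATH1 arrays were analysed as the authors deposited them; RMA made them per the submitters' processing notes, and its version is not given in the sources used here. RMA forces arrays to similar distributions, so differences are relative to the rest of the array. The genes of probe sets came from the platform annotation, which names 1 gene for 13513 probe sets, several for 503 and none for 8730. Loci were placed with the RefSeq annotation of TAIR10.1. No arrays held identical values (0 pairs).

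The linear models of limma 3.58.1, run under R 4.3.3 (lmFit, eBayes, two-sided), took in all probe sets: 12 arrays and 4 group means within a tissue, 24 arrays between tissues. P-values were adjusted by Benjamini-Hochberg over all probe sets within each of 12 comparisons, with a threshold of 0.05. The fit was tested on simulated data. Figures and summaries used Python 3.11.15. Same-numbered KCl and water root arrays deviated together (correlations of 0.37, 0.34 and 0.18), so the blocked value stands beside that comparison; in the other comparisons within a tissue the correlations were not all above 0.1.

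Named for each particle and tissue comparison were the 10 largest passing members per direction, filled up to 5 by smallest p; for other comparisons 3, filled up to 2; and the 3 brightest and dimmest members, AT1G23410 and paralogs. From each other gene list up to 3 passing members were named. The members and lists were chosen with earlier results of these data known. The list of other cytosolic ribosomal protein genes was written from knowledge of the loci after the annotation had been read, since the annotation's names gave 1 locus with a probe set of its own out of 65. Alternatives were a second quantile normalization, median centring, a mean of at least 5, the compared groups alone, the replicate number as a block, and leaving out the 6 arrays with a lower quartile above 3.7 or each array in turn. Sequences of promoters and proteins were not used here. The values of 1 member enter the counts and medians but are not reported here on their own.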

Additional observations from a re-analysis of the deposited data

Results flagged for a closer look

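AT1G77940, a gene for the large subunit protein RPL30, had differences of opposite sign in the 2 tissues under TiO2, neither of which passed. Relative to KCl its difference was -0.67 in roots (limma adjusted p = 0.189), where all 3 TiO2 arrays lay below all 3 KCl arrays, and 0.54 in leaves (adjusted p = 0.46), where all 3 TiO2 arrays lay above all 3 KCl arrays. The difference between the 2 effects, -1.21 ± 0.40, did not pass in limma (adjusted p = 0.225).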

How the results depend on the processing

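Neither call on AT1G23410 between root treatments held under every alternative. For TiO2 against KCl in roots, the count of passing genes was 0 in the compared groups alone, with the replicate number as a block (adjusted p = 0.0798) and without the narrow arrays, and also with a mean of at least 5, where the gene itself is left out. For KCl against water in roots it was 0 under the same 4 alternatives. No block count elsewhere differed from the count without it by over 1.5 times, although AT1G67430 lost its call between control roots and leaves (adjusted p = 0.0507). Leaving out 1 array in turn gave 0 to 1 genes for each of these, for the TiO2 effect against the CeO2 effect in roots and for the TiO2 effect in roots against leaves; 9 to 14 for roots against leaves in control plants; 3 to 8 in particle-treated plants; and 0 elsewhere. With arrays quantile-normalized again, 1 gene passed for the TiO2 effect in roots against leaves. The shares of all probe sets called in these refits are not given here. Centring moved the median level of the genes in TiO2 leaves to 10.47, and shifted the median difference over all 22746 probe sets by -0.12 for KCl against water in roots, -0.11 and 0.13 for the TiO2 against the CeO2 effect in leaves and roots, and 0.19 for the TiO2 effect in roots against leaves. No direction of a passing gene reversed. Over all alternatives and the genes that passed, 284 refits kept the call and 43 lost it. The number of arrays and, for AT1G23410, a signal below the array median on 21 arrays limit these values.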

Other observations

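Genes that work with the ribosome gave the following counts, from lists of which few loci had a probe set of their own. Of 16 probe sets for ribosome assembly factors (15 of 30 loci), 5 were higher in control roots than in control leaves and 0 lower. The shares of all probe sets were 19.2% and 15.4%. The median over the 16 was 0.43. AT2G40360 and AT5G15550, the genes for the pre-60S assembly factors BOP1 and WDR12, were 1.95 ± 0.32 and 1.64 ± 0.19 higher (limma adjusted p = 9.03e-05 and 2.32e-06). AT1G79150, the gene for the nucleolar factor NOC3, was 1.10 ± 0.18 higher by 1 of its probe sets (adjusted p = 6.93e-05), and its other probe set had 0.30 ± 0.21 (0.31). In particle-treated plants 3 were higher and 1, AT3G15460 (-0.86 ± 0.30, adjusted p = 0.0352), was lower, against 15.5% and 13.6% of all probe sets.

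RAPTOR2, a regulatory partner of the TOR kinase, was higher in roots in particle-treated plants (0.77 ± 0.21, adjusted p = 0.00878) and in control plants (0.67 ± 0.21, adjusted p = 0.0189). RAPTOR1 was higher in particle-treated roots (0.86 ± 0.28, adjusted p = 0.0239) and had 0.57 ± 0.28 in control plants (0.122). No other of the 9 TOR pathway loci had a probe set of its own. Of 14 cell division loci 2 had one, and both, the Aurora kinases AUR1 and AUR2, were higher in control roots (1.24 ± 0.27 and 1.52 ± 0.37, adjusted p = 0.00149 and 0.00334). EIF4A-2, 1 of 2 translation initiation factors measured, was higher in control roots (0.87 ± 0.25, adjusted p = 0.0122). AT5G19510, an elongation factor gene, had 0.41 ± 0.21 in control plants (0.143), and SAG101 of the senescence list had -0.69 ± 0.36 (0.153). None of the 3 loci for the ribosome-bound scaffold RACK1 had a probe set of its own. No gene of these lists passed in any comparison between treatments.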
